A study of Danio rerio with 2 samples.

Results

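The her4, her12 and her15 genes of the zebrafish are tandem copies that encode small basic helix-loop-helix repressors of the hairy and enhancer of split family, related to mammalian Hes5. When a Delta or Jagged ligand on one cell binds a Notch receptor on the next, the receptor is cut. The cut receptor enters the nucleus, where together with the DNA-binding protein Rbpj it switches such genes on. In the embryonic nervous system their products repress proneural genes such as neurog1, which keeps cells as progenitors, and her12 and her15 are also known from the presomitic mesoderm that forms the somites. All of these genes that the deposited table lists were lower in the ezh2-/- library, with the largest summed fold in her4. Counting error did not separate the her4 sum from her12, while the folds of single her4 copies lay on both sides of that of her12.

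The loci were chosen by their names: each row of the deposited table whose product name or zebrafish KEGG symbol names a her4 copy, her12, her15.1 or her15.2. This gave 8 of the 1287 listed genes, of which 5 were her4 loci, 1 was her12 and 2 were her15 loci. Messenger RNA of whole embryos was sequenced at 28 hours post fertilization in 1 library of ezh2-/- embryos and 1 library of WT embryos, both of the AB background. Ezh2 is the enzyme of Polycomb repressive complex PRC2 that methylates histone H3 at lysine K27. The labels give neither the allele, nor the number of embryos in a library, nor whether maternal Ezh2 was present. With 1 library for each genotype there is no replicate check, and no p-value can be given for the genotypes.

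The table holds only genes that the authors called different, so the total depth of each library is unknown. Counts per FPKM of the listed genes gave a relative depth of 0.978, ezh2-/- over WT. In the authors' deposited table the smallest absolute log2 fold change is 1.0, so that each of the 8 loci differs at least 2-fold follows from the selection, and copies outside the table are not counted here. The listed genes sum to 764775 counts in the ezh2-/- library and 799647 counts in the WT library. The gene ezh2 was not listed, so it gave no check of the genotype labels. Folds are ratios of counts, ezh2-/- over WT, set to the same scale as the authors' own fold changes, and the intervals in brackets are 95% exact intervals that cover counting error only. FPKM values are the authors' levels per transcript length. Whole embryos mix many cell types, so fewer cells that express a gene and less RNA per cell cannot be told apart. Markers of neural tissue, blood and skin were listed, while the muscle and endothelium lists had no matched gene. This does not mean that no muscle gene differed. A gene with the product name alpha cardiac muscle actin 1, which had no symbol to match, was 5.33-fold lower (4.85 to 5.87). About genes that are not listed, a table of differing genes says nothing.

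The her4 group was lower at every listed copy. The locus gene35987, named hairy-related 4.2, had 114 counts in the ezh2-/- library and 839 counts in the WT library, 7.29-fold lower (5.99 to 8.94). The locus gene35985, named hairy-related 4.3, had 52 counts in the ezh2-/- library and 419 in the WT library, 7.98-fold lower (5.97 to 10.9). The locus gene35983, named hairy-related 4.1-like, had 37 counts in the ezh2-/- library and 285 in the WT library, 7.63-fold lower (5.40 to 11.1). These copies stood close together, and the interval of each held the folds of the other two.

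The remaining her4 copies carry the same product name, hairy-related 4.2-like, and were less reduced. The locus gene35984 had 119 counts in the ezh2-/- library and 625 in the WT library, 5.20-fold lower (4.27 to 6.38). The locus gene35986 had 84 counts in the ezh2-/- library and 286 in the WT library, 3.37-fold lower (2.63 to 4.35). It was therefore the least reduced of the her4 copies, although in the WT library its count differed by 1 from that of gene35983. Summed over the 5 loci, her4 had 406 counts in the ezh2-/- library and 2454 counts in the WT library, 5.98-fold lower (5.39 to 6.66).

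The single her12 locus, gene35982, had 187 counts in the ezh2-/- library and 932 counts in the WT library. This was 4.93-fold lower (4.21 to 5.81). The locus gene22316, named her15.1 in the table, had 437 counts in the ezh2-/- library and 1593 in the WT library, 3.61-fold lower (3.24 to 4.02). The locus gene22318, named her15.2 in the table, had 150 counts in the ezh2-/- library and 548 in the WT library, 3.62-fold lower (3.01 to 4.36). The her15 copies thus differed in level but had almost the same fold. Together they had 587 counts in the ezh2-/- library and 2141 in the WT library, 3.61-fold lower (3.29 to 3.96).

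Over all 8 loci the counts were 1180 in the ezh2-/- library and 5527 in the WT library, 4.64-fold lower (4.35 to 4.94). Listed genes at least 2-fold lower were 31.9% of the table, and each of the 8 loci was among them; genes at least 2-fold higher were 68.1%, and none of the 8 was among those. With the table's median log2 fold subtracted from each gene, 411 genes were at least 2-fold lower and 210 at least 2-fold higher, in place of 411 and 876. The selection fixed the lower count, since each listed gene differs at least 2-fold and this shift is too small to add others. At least 4-fold lower were 4.58% of the table and 14.4% of the lower genes. Of the 8 loci, 5 passed 4-fold, namely her12 and the her4 copies other than gene35986. The median log2 fold of the 8 loci was -2.34, beside -1.32 over all genes that were at least 2-fold lower and 1.31 over the whole table.

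**Figure D1:**
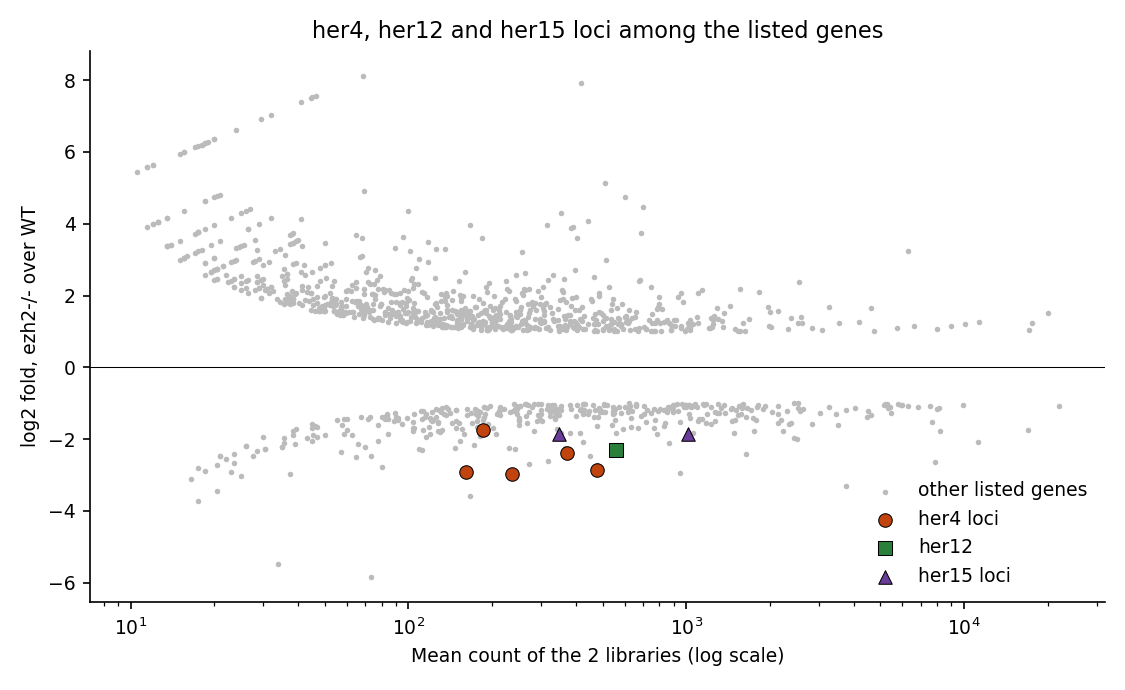
Each listed gene by its mean count in the 2 libraries (x axis, log scale) and its log2 fold, ezh2-/- over WT (y axis); orange circles are the her4 loci, the green square is her12 and purple triangles are the her15 loci. The empty band around 0 is the authors' selection, and the 8 loci lie between -2.98 and -1.75, with 5 of the 8 under -2.

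Levels were compared on the authors' scale per transcript length. The most abundant locus in both libraries was gene22316 (her15.1), with 24.2 FPKM in the ezh2-/- library and 90.2 FPKM in the WT library. The second was her12, with 12.3 FPKM in the ezh2-/- library and 59.1 FPKM in the WT library. The locus gene22318 (her15.2) had 8.15 FPKM in the ezh2-/- library and 30.4 FPKM in the WT library. The her15 and her12 loci were thus the 3 most abundant in the ezh2-/- library.

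Among the her4 copies, gene35987 had 4.65 FPKM in the ezh2-/- library and 32.1 FPKM in the WT library. The locus gene35984 had 4.82 FPKM in the ezh2-/- library and 23.9 FPKM in the WT library. These were the highest her4 levels, and in the WT library gene35987 also stood above gene22318, which was not so in the ezh2-/- library. The locus gene35983 had 2.44 FPKM in the ezh2-/- library and 18.1 FPKM in the WT library, and gene35985 had 2.1 FPKM in the ezh2-/- library and 15.7 FPKM in the WT library. The locus gene35986 had 3.49 FPKM in the ezh2-/- library and 11.2 FPKM in the WT library. It had the lowest level of the 8 in the WT library, but not in the ezh2-/- library, where gene35983 and gene35985 were lower.

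Summed per group, her4 had 17.5 FPKM in the ezh2-/- library and 101 FPKM in the WT library. The her15 copies had 32.4 FPKM in the ezh2-/- library and 121 FPKM in the WT library. The her4 sum was below the her15 sum in both libraries. The span between the highest and the lowest of the 8 levels was 11.5-fold in the ezh2-/- library and 8.03-fold in the WT library. For comparison, the median level of all genes that were at least 2-fold lower was 4.41 FPKM in the ezh2-/- library and 10.3 FPKM in the WT library. All 8 loci were above that median in the WT library, while gene35983, gene35985 and gene35986 were below it in the ezh2-/- library.

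**Figure D2:**
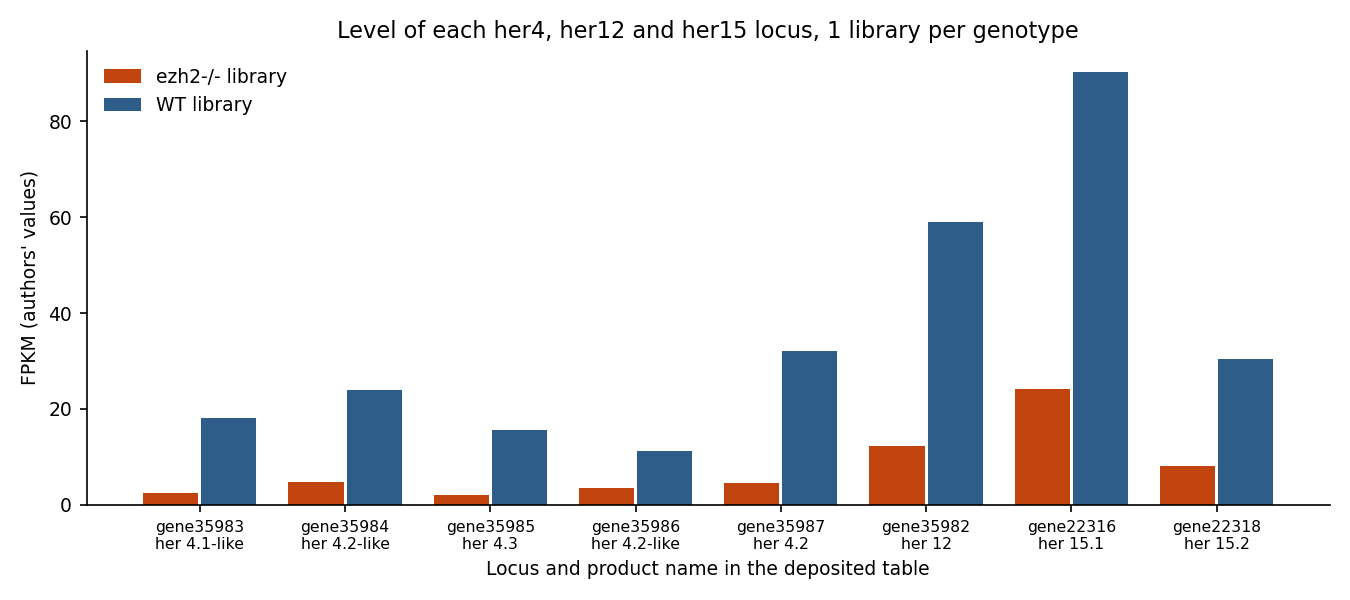
Level of each of the 8 loci in FPKM (y axis, from 0), with the ezh2-/- library in orange and the WT library in blue; there is 1 library for each genotype, so no error bar is drawn. Each orange bar is lower than its blue partner, and gene22316 (her15.1) is the highest in both libraries.

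Of the her4 copies, gene35986 held a larger share of the summed her4 counts in the ezh2-/- library. The share of gene35986 was 20.7% (exact interval 16.9 to 25.0) of the 406 counts in the ezh2-/- library and 11.7% (10.4 to 13.0) of the 2454 counts in the WT library. These intervals did not overlap. The share of gene35987 was 28.1% (23.8 to 32.7) in the ezh2-/- library and 34.2% (32.3 to 36.1) in the WT library. The share of gene35985 was 12.8% (9.72 to 16.5) in the ezh2-/- library and 17.1% (15.6 to 18.6) in the WT library. For gene35987 and gene35985 the intervals of the libraries overlapped.

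The same differences were read as ratios of ratios, each with a 95% exact conditional interval. The count ratio of gene35986 was 1.98 times that of the other her4 copies summed (1.49 to 2.61). That of gene35985 was 0.714 times (0.513 to 0.977) and that of gene35987 was 0.752 times (0.590 to 0.952) that of the others. For gene35983, at 0.763 times (0.517 to 1.1), and gene35984, at 1.21 times (0.953 to 1.54), the interval held 1. Of the 10 pairs of her4 copies, 6 had an interval without 1. All 4 pairs with gene35986 were among them, together with gene35984 against gene35985 and gene35984 against gene35987. These intervals are not adjusted for the number of pairs. Reads that match several copies can have been divided between them by the authors' counting, by a method that no label or header states, so the values of single copies are uncertain while the sum depends less on that division.

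**Figure D3:**
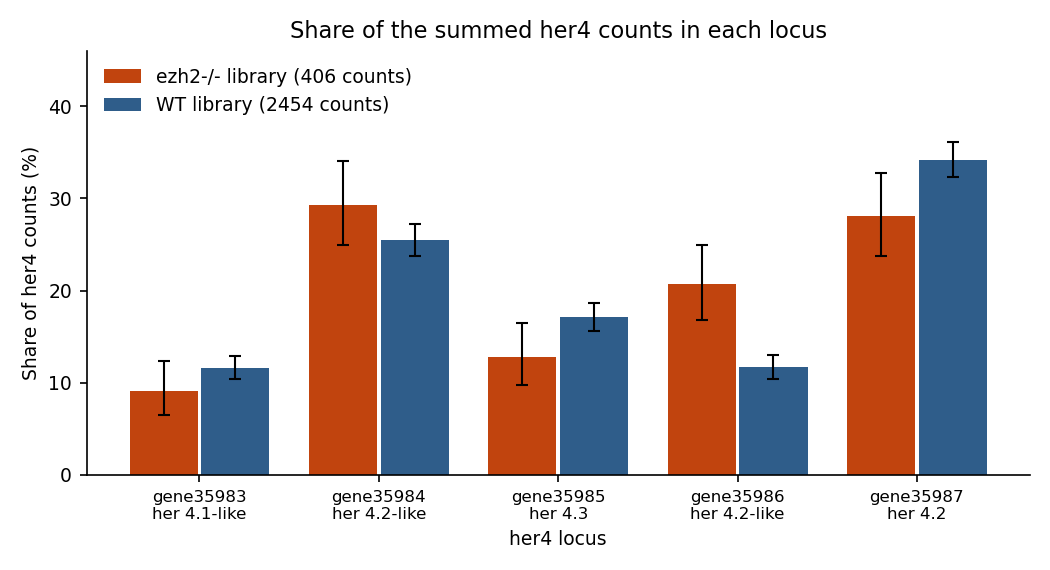
Share of the summed her4 counts held by each her4 locus (y axis, percent), with the ezh2-/- library (406 counts) in orange and the WT library (2454 counts) in blue; black lines are 95% exact binomial intervals, which cover counting error only. The share of gene35986 is 20.7% in the ezh2-/- library and 11.7% in the WT library, the 1 copy whose intervals do not overlap.

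The shares of the her15 copies differed by less than counting error. The locus gene22316 held 74.4% of the her15 counts in the ezh2-/- library (70.7 to 77.9) and 74.4% in the WT library (72.5 to 76.2). Its count ratio was 1.0 times that of gene22318 (0.810 to 1.24). The interval therefore leaves room for a difference between the her15 copies in either direction. The caution on divided reads applies to them as well.

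The groups were then compared with each other in the same way. The summed her4 loci were 1.66-fold further reduced than the summed her15 loci (1.44 to 1.91). The her12 locus was 1.37-fold further reduced than the her15 loci (1.14 to 1.65). Between the summed her4 loci and her12 the factor was 1.21, with an interval of 0.998 to 1.47 that held 1, so these were not separated at this depth. That sum includes gene35986, which was 3.37-fold lower. Without it the log2 fold of the her4 sum was -2.73, beside -2.30 for her12. The intervals of gene35987 (5.99 to 8.94) and gene35985 (5.97 to 10.9) lay above that of her12 (4.21 to 5.81), and those of the other her4 copies overlapped it. The caution on divided reads applies to these single copies. The her12 and her4 genes are neighbours in the RefSeq annotation of assembly GRCz12tu, used here for names and gene order alone, and her15.1 and her15.2 lie elsewhere, next to her2. In that annotation her12 and 5 her4 genes, named her4.1 to her4.5, follow each other with no gene between them. The her12 and her4 loci together had 593 counts in the ezh2-/- library and 3386 in the WT library, 5.65-fold lower (5.18 to 6.18).

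Names within the clusters are not settled by the table. None of the her4 loci had a KEGG symbol, and only 2 of the 8 loci did. The product name hairy-related 4.2-like was given to both gene35984 and gene35986, so the 5 loci could not be matched one to one to the current symbols. The table's KEGG entry calls gene22316 her15.1, while the same gene identifier carries the symbol her15.2 in the current RefSeq table, and the locus numbers are therefore the safer names. The deposited count per unit of FPKM, which grows with the transcript length used, was 15.8 for gene35983 in the WT library, close to the 15.8 of her12. It was between 25.5 and 26.8 for the other her4 copies. The FPKM of gene35983 therefore rests on a shorter transcript model than those of the other her4 copies.

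The functional annotation that the table attaches to the loci does not divide them in a single way. All 8 carry the term protein dimerization activity, by which basic helix-loop-helix proteins pair. The term for axon growth of peripheral neurons was attached to 8 genes, the 5 her4 loci and the receptor genes notch1a, notch1b and notch3, and all 8 were lower. The Notch signalling term was attached to her12 and both her15 loci, but to none of the her4 loci. In all it was attached to 13 genes, of which 12 were at least 2-fold lower and 1, an ADAM10-like protease gene, was higher. The somitogenesis term was attached to her12 and both her15 loci as well, and 7 of its 9 other genes were lower. The brain development term grouped the same loci, and 2 of its 3 other genes were lower. The eye development term was attached to the her15 loci without her12, and 2 of its 4 other genes were lower. The DNA binding term was attached to her12 and the 5 her4 loci but to neither her15 locus, and 36 of its 45 other genes were lower. Of all 1287 listed genes, 31.9% were at least 2-fold lower, which is the share to set beside these counts.

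Upstream of the her loci, 7 of 13 Notch ligand and receptor genes were listed, each of them lower, with a median log2 fold of -1.23. Beside this list and those below stands the share of 31.9% of all listed genes that were at least 2-fold lower. The receptor gene notch1a had 3354 counts in the ezh2-/- library and 6969 in the WT library, 2.06-fold lower (1.97 to 2.14). The receptor gene notch3 was 2.11-fold lower (2.03 to 2.19), with 4029 counts in the ezh2-/- library and 8582 in the WT library. The receptor gene notch1b was 2.34-fold lower (2.21 to 2.49), with 1530 counts in the ezh2-/- library and 3621 in the WT library. The ligand genes dla, dlb, dld and jag1a were between 2.28-fold and 2.91-fold lower. A gene with the product name jagged-2-like, which was not matched to the list, was 2.45-fold higher (1.90 to 3.18). The listed genes had a median log2 fold of 1.31. After subtracting that median from each gene this ligand was at -0.02, while the 8 her loci and the other lower genes were lower still. That shift is positive because most listed genes were higher, and it is not a measured scale between the libraries.

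Against the receptor genes notch1a, notch1b and notch3 summed, the her4 loci were 2.81-fold further reduced (2.52 to 3.14). Her12 was 2.32-fold further reduced than these receptors (1.97 to 2.73) and the her15 loci 1.70-fold (1.54 to 1.87). Against the Delta ligand genes dla, dlb and dld summed, the her4 loci were 2.43-fold further reduced (2.17 to 2.72), her12 2.0-fold (1.70 to 2.36) and the her15 loci 1.46-fold (1.33 to 1.62). No interval held 1. The choice of a scale between the libraries cancels in these ratios.

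Other genes that Notch switches on gave a mixed comparison with the her loci. The feedback inhibitor gene nrarpa, which encodes a small ankyrin repeat protein that binds the cut receptor, had 135 counts in the ezh2-/- library and 763 in the WT library, 5.60-fold lower (4.65 to 6.77). The her4 loci were 1.07-fold further reduced than nrarpa (0.859 to 1.33), an interval that held 1. Its paralogue nrarpb was 2.75-fold lower (2.57 to 2.94), and the her4 loci were 2.18-fold further reduced than it (1.92 to 2.47). The Notch target gene hey1 was 2.27-fold lower (2.01 to 2.57), and the her4 loci were 2.64-fold further reduced than it (2.24 to 3.11). Counting error thus did not separate nrarpa from the her4 loci, but separated nrarpb and hey1 from them. The count ratio of her12 was 1.13 times that of nrarpa (0.885 to 1.46), an interval that held 1. The her15 loci were less reduced than nrarpa, with a count ratio 1.55 times that of nrarpa (1.26 to 1.92). Against nrarpb and hey1, her12 and the her15 loci were further reduced, and no interval held 1.

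Of 34 genes of the signalling machinery and its modulators, 4 were listed, 3 lower and 1 higher. Beside both nrarp genes the lower one was dtx1, which encodes a Deltex ubiquitin ligase and has the current symbol dtx4a; it was 2.70-fold lower (2.46 to 2.97). The higher one was ncstn, which encodes nicastrin of the gamma-secretase that cuts the receptor, with 302 counts in the ezh2-/- library and 111 in the WT library; its log2 fold was 1.45, or 0.15 after that shift. Not matched to the list were a gamma-secretase APH-1A gene, 2.29-fold lower (1.92 to 2.74), and the ADAM10-like gene, 2.07-fold higher (1.81 to 2.38). In FPKM the APH-1A gene differed less, with 4.54 in the ezh2-/- library and 6.30 in the WT library, a log2 ratio of -0.46. After that shift the log2 fold of the ADAM10-like gene was -0.26. Listed genes of the steps that cut the receptor thus went both ways.

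**Figure D4:**
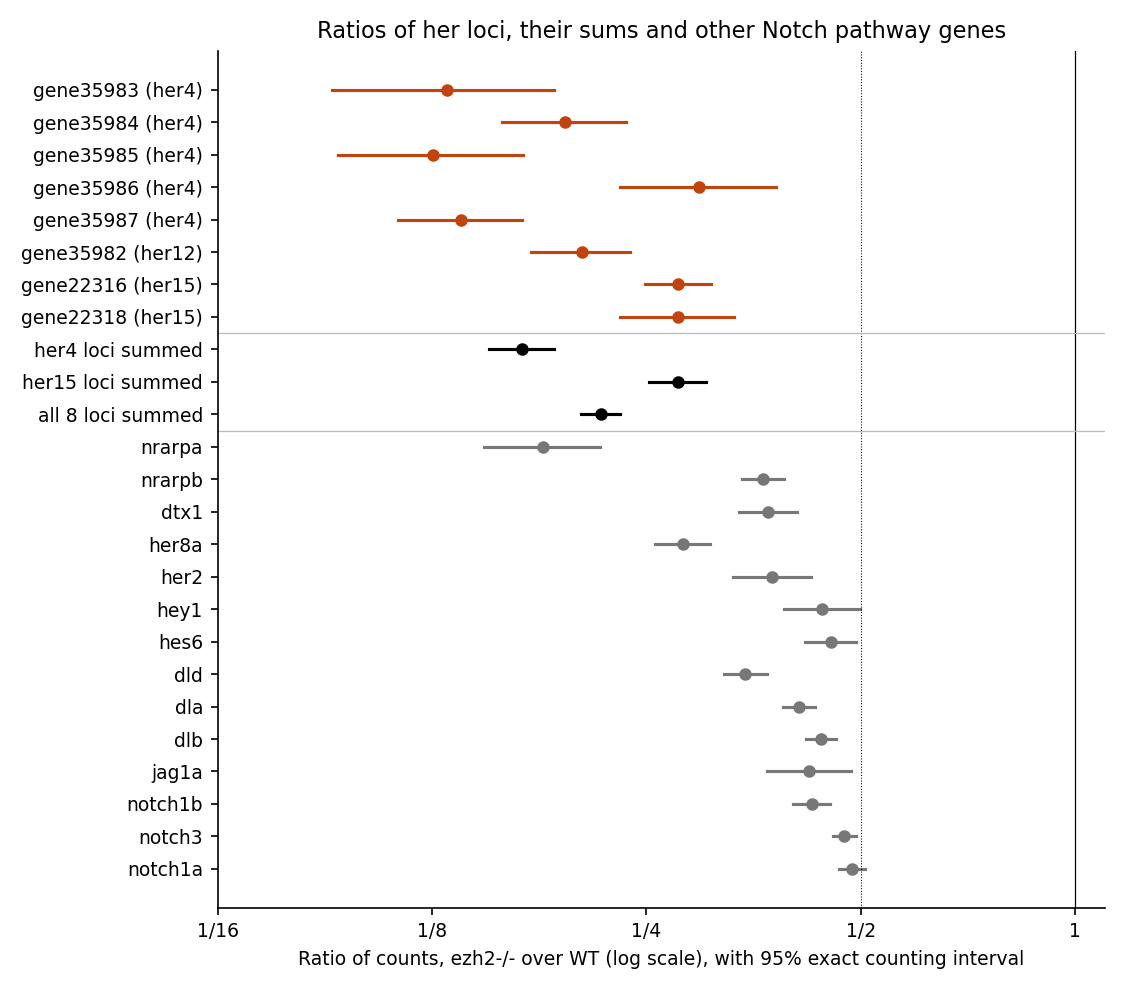
Ratio of counts, ezh2-/- over WT (x axis, log scale), with 95% exact counting intervals. The 8 loci are orange, their sums black, and other genes of the Notch pathway and hairy family grey. The grey genes are a chosen set, each of them lower, and the higher ncstn, jagged-2-like and ADAM10-like genes are not drawn. The solid line marks no difference and the dotted line 2-fold lower. The loci gene35985, gene35983 and gene35987 lie furthest left, nrarpa lies beside the her4 sum, and the receptor genes lie close to the dotted line.

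In the rest of the hairy family, 7 of 20 genes were listed, each of them lower, with a median log2 fold of -1.41. The gene her2, next to the her15 copies in the RefSeq order, had 342 counts in the ezh2-/- library and 921 in the WT library, 2.67-fold lower (2.35 to 3.03). The her15 loci were 1.35-fold further reduced than her2 (1.16 to 1.58) and the her4 loci 2.24-fold (1.90 to 2.65). Near the her15 fold was her8a, 3.56-fold lower (3.26 to 3.89). The log2 folds of hes2.2, helt, her8.2, hey1 and hes6 lay between -2.22 and -1.14. A gene with the product name transcription factor HES-3, which was not matched to the list, was lower than these, at -2.49.

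Her proteins are known to repress proneural genes. Of 24 proneural and related helix-loop-helix genes 11 were listed, each of them lower, and their median log2 fold was -1.57. The gene neurog1, which starts neuronal differentiation, had 402 counts in the ezh2-/- library and 1261 in the WT library, 3.11-fold lower (2.77 to 3.48). The neuronal differentiation gene neurod4 was 2.97-fold lower (2.71 to 3.26). The precursor gene olig2 was 4.25-fold lower (3.57 to 5.08). The retinal gene atoh7 was 4.03-fold lower (2.22 to 7.83), with 14 counts in the ezh2-/- library. The log2 folds of tal2, olig3, olig4, atoh1a and atoh1b lay between -1.70 and -1.16. The table gives no value for the other genes of the list.

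Some neural markers moved with the her loci. Of 37 neural progenitor genes, 9 were listed, each of them lower, with a median log2 fold of -1.21 and 8100 counts summed in the ezh2-/- library against 19380 in the WT library. Their log2 folds ran from -1.83 to -1.09. The largest differences were those of the patterning genes gsx1, 3.56-fold lower (3.01 to 4.22), and dbx1a, 3.24-fold lower (2.85 to 3.69); otx2b was 2.33-fold lower (2.04 to 2.66). The progenitor gene sox3 was 2.2-fold lower (2.11 to 2.29) and sox19a 2.50-fold lower (2.39 to 2.61). Against sox3 the her4 loci were 2.72-fold further reduced (2.43 to 3.06), her12 2.25-fold (1.91 to 2.66) and the her15 loci 1.64-fold (1.49 to 1.82). Of 35 genes of differentiating neurons, 6 were listed, each of them lower, with a median log2 fold of -1.07. Among these ebf2 was 2.84-fold (2.62 to 3.09), lhx5 2.27-fold (1.96 to 2.64), lhx1a 2.13-fold (1.81 to 2.52) and elavl3 2.08-fold lower (2.02 to 2.15), and the her4 loci were 2.87-fold further reduced than elavl3 (2.57 to 3.21). The part of these tissue markers in the her values was not tested. Outside the nervous system, the 10 listed loci, matched to 8 of 15 red blood cell genes, were all lower, with log2 folds from -3.31 to -1.42, the largest in hbae1.1 (gene4866), hbbe1.1 (gene4865 and gene4867) and the regulator gata1a. All 3 listed of 18 skin genes, the adhesion and plakin genes cdh1, ppl and evpla, were higher, with log2 folds from 1.08 to 1.58. Most listed genes were higher as well, 68.1% of the 1287 by at least 2-fold. After the shift of 1.31, which is the median of the listed genes and not a measured scale, cdh1 was at 0.27, ppl at -0.21 and evpla at -0.23.

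Among 26 genes of the segmentation clock and presomitic mesoderm, apart from the her loci, 5 were listed, of which 4 were lower and 1 was higher. The clock genes her1 and her7 were not among the listed genes. The T-box gene tbx16l was 2.72-fold lower (1.80 to 4.22), with 32 counts in the ezh2-/- library and 88 in the WT library. The tail bud gene cdx4 was 2.62-fold lower (1.81 to 3.88), uncx 2.52-fold (2.04 to 3.14) and meox1 2.23-fold (1.91 to 2.61). The signal gene wnt3a was higher, with 409 counts in the ezh2-/- library and 161 in the WT library, a log2 fold of 1.36, or 0.05 after the shift.

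The 5 genes outside the group given next were among the 6 nearest to the her4 sum in log2 fold over the 2 libraries, among named genes with at least 50 counts in one library. In order of distance they were the globin locus hbbe1.1 (gene4865), a gene named transcription factor HES-3, nrarpa, scrt1b and a cardiac alpha-actin gene. Their log2 folds were -2.63, -2.49, -2.48, -2.47 and -2.41, beside -2.58 for the her4 sum. The HES-3 gene had 19 counts in the ezh2-/- library and 110 in the WT library, 5.73-fold lower (3.50 to 9.88). With 2 libraries, likeness means only a similar fold.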

How the data were processed

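Poly(A) RNA libraries were made with a NEBNext Ultra kit, which does not mark strand, per the labels' protocols. The submitters' processing notes name the build GRCz10, Bowtie 0.12.2 and Cufflinks without their roles; how reads were counted and how those shared by copies were treated is not stated. A read count and an FPKM per gene and library were deposited, per the file headers, with an FDR (an adjusted p-value) and a log2 fold change. In the authors' deposited table the largest FDR is 0.00996. Of the 8 her loci, 5 have an FDR listed as 0, as do 58 of all 1287 listed genes. The largest FDR among the 8 is 4.37e-08. These FDR values compare 2 libraries, not the genotypes.

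Counts were used as deposited. The log2 fold is log2 of (ezh2-/- count + 0.5) over (WT count + 0.5), plus 0.0144. That constant is the median, over 391 genes with 200 or more counts in each library, of the authors' value minus the log2 ratio of counts. Intervals are exact (Clopper-Pearson for a ratio or share, conditional for a ratio of ratios; SciPy 1.17.1) and cover counting error only; the labels mention no molecular identifiers, so reads may not be independent molecules. The steps were tested on simulated counts with known folds and counting error only, which checks the arithmetic and not the spread in these libraries. Symbols came from the table's KEGG entries (558 of 562 identifiers matched in RefSeq GRCz12tu); 18 list loci were named from the product name.

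All 8 loci are named, with every listed gene of the Notch, hairy and proneural lists, up to 4 genes with the largest fold of each other list, and the 6 genes nearest in fold to the her4 sum, except 3 genes not reported here. The genes meox1 and sox3 and products not matched to a list were chosen after their values were seen. The members and lists were chosen with earlier results of these data known. None of 20 muscle and 14 endothelium genes was matched, and the listed cardiac alpha-actin gene had no symbol to match.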

Additional observations from a re-analysis of the deposited data

How the results depend on the processing

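No paired analysis was possible because each genotype has 1 library. No alternative reversed the direction of the fold of a her locus or of their sums. This could hardly have come out otherwise, since each listed locus differed at least 2-fold and the shift below lowers every fold. Setting the median log2 fold of the listed genes to 0 is a shift that arises because most listed genes were higher. With it the log2 fold was -3.89 for the her4 sum (-2.58 as reported), -3.61 for her12 (-2.30), -3.16 for the her15 sum (-1.85) and -3.52 for all 8 loci (-2.21). On that scale 210 listed genes were at least 2-fold higher (876 as reported) and 411 at least 2-fold lower (411 as reported). The lower count was fixed by the selection, since the shift of 1.31 keeps every lower gene and brings no higher gene to 2-fold lower. The genes at least 2-fold higher on that scale in the machinery, presomitic and skin lists numbered 0, 0 and 0. Chosen after seeing the data, the sum of all loci was -1.97 without the her4 loci and -2.50 without the her15 loci. The other alternatives for these sums, namely 5 counts added, FPKM with 0.1 or 1 added, the relative depth of 0.978 from counts per FPKM and the sums without 1 locus, stayed within the counting intervals. For single loci 48 alternatives gave log2 folds from -4.29 to -1.45, and 10 of them left the interval of the locus, 8 of these by the shift above. The sum over loci with a KEGG her4 symbol was not run, since no locus has one. At these counts the intervals for the her4 sum against her12 and against nrarpa held 1, which does not show equal folds.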
